A study of Mus musculus with 4 samples.

Results

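The transcripts described here are those of 10 genes of the hypoxia-inducible factor (HIF) pathway in fetal mouse liver, namely Hif1a, Epas1, Arnt, Egln1, Egln2, Egln3, Vhl, Hif1an, Vegfa and Slc2a1. They were chosen by name, as the regulators of the pathway together with a pair of its known targets, and every non-control probe whose transcript belongs to one of them was taken. In this way 16 probes for 10 genes were found, of 56596 probes and 22909 named genes on the array. Livers were taken from fetuses of C57BL/6J dams 14 days after the morning of the vaginal plug. Dams were fed during gestation either a control diet (CD) or a high-fat diet (HFD). Fat gave 4.3% of the energy of the CD and 60% of that of the HFD. Protein gave 19.2% and 20%, and carbohydrate 67.3% and 20%, so that the diets differed in carbohydrate as well as in fat. Each diet was represented by 2 single-colour Agilent arrays of whole liver RNA, which the labels call replicates. The number of fetuses or dams behind an array was not given in the sources used here, so that p-values measure the spread between these arrays. Within each diet the arrays differed in Y-linked transcripts and Xist, as given below, so that they were not repeats of the same RNA. Whether they came from different dams is not known.

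HIF is a transcription factor made of an alpha subunit, which is destroyed when oxygen is plentiful, and a stable beta subunit. Prolyl hydroxylases use oxygen to mark the alpha subunit, VHL recognises the mark and sends the protein to the proteasome, and an asparaginyl hydroxylase blocks the part of HIF that activates genes. Since this control acts on protein, the level of an alpha subunit's mRNA need not follow its protein, whereas the mRNA of target genes such as Vegfa and Slc2a1 is what HIF raises in low oxygen. The study asked about hypoxia in these fetal livers, and the arrays bear on the mRNA side of that question only.

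HIF binds DNA at sites with the core letters ACGTG or GCGTG. These letters were searched on both strands in the 250 bases before each transcription start in RefSeq (GRCm38.p6), where matches may overlap. At least 1 of them was found in 38.6% of 32851 promoters (ACGTG in 16.6%, GCGTG in 28.2%) and in 8 of the 11 promoters of 9 members, while Epas1 had no entry. The windows below are shown because they belong to members that HIF is known to induce. Further GCGTG matches of Egln1 (126 bases before the start) and of Vegfa (218 bases before the second start) are not shown. Capitals mark the core letters, which read CACGT or CACGC where the match lies on the opposite strand.
Slc2a1, chr4:119108699-119108723, + strand, core 36 bases before the start: cccgccccggACGTGctccccaggc
Slc2a1, chr4:119108674-119108698, + strand, core 61 bases before the start: cccacagaacCACGCctctcagagt
Egln1, chr8:124949308-124949332, - strand, core 68 bases before the start: gccgtggtgtACGTGcagcgcgcgc
Egln3, chr12:54204089-54204113, - strand, core 229 bases before the start: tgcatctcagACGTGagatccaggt
Vegfa, second start in the table, chr17:46025360-46025384, - strand, core 211 bases before the start: agtgcgtgccCACGTcagagagcaa
A match is a description of letters and not of a bound site, and the other Vegfa start and the promoters of Vhl and Hif1an held none in this window.

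The level of a probe is its log2 intensity relative to the 75th percentile over the probes of that array, so that levels of different probes cannot be set against each other. On each of the 4 arrays, all 16 member probes were flagged as well above background, and they passed the filters on dim and variable probes, and their intensities ran from 37.0 to 81031. The probe with the highest mean level stands for each gene unless another is named. The differences between the diets come from limma, fitted on all 41332 probes that passed the filters, with a 95% interval. After Benjamini-Hochberg adjustment no probe on the array was called (smallest limma adjusted p = 1.00, which is also that of every member). With 2 arrays against 2, an exact permutation test of 1 gene cannot go below 0.333.

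The labels give the sex of all 4 samples as female, without saying whether the dam or the fetus is meant. The Y-linked transcripts Ddx3y, Eif2s3y, Kdm5d and Uty were well above background on CD replicate 1 and HFD replicate 1 and not on the arrays of replicate 2, and Xist showed the opposite order. Each diet thus held 1 array of either kind. The markers of hepatoblasts (8 of 8, Afp, Alb and Trf brightest) and of erythroid cells (8 of 8, Slc4a1, Alas2 and Gata1 brightest) were well above background on all arrays. Of 9 trophoblast and decidua markers 8 were so too, Syna was not on any array, and log2 summed levels were 6.59 and 6.85 under CD and 6.29 and 6.55 under HFD. The brightest of them, Psg23 and Gcm1, overlapped between the diets, with log2 fold changes of -0.19 and 0.55. Tpbpa, the next in brightness, had levels of 3.01 and 4.80 under CD and 1.00 and -1.01 under HFD, and was left out of the fit with Prl3b1 and Prl8a9 for its CV. Of these 9 markers, 4 had both HFD arrays below both CD arrays (11.1% of all tested probes) and 5 overlapped. Those 4 included Tpbpa, Prl3b1 and Prl8a9, which were not among the tested probes. In whole liver RNA, fewer cells of a type and less RNA per cell cannot be told apart. Which cells or tissue gave the RNA of the trophoblast and decidua markers was not tested. Across the tested probes the SD of the log2 difference was 0.58 between the CD arrays and 0.34 between the HFD arrays.

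None of the 10 members differed between the diets past both cutoffs used here, a limma p under 0.05 before adjustment and a change of 2-fold or more, which 0.769% of all tested probes passed (0.293% higher and 0.477% lower in the HFD group). None of the 16 probes reached the cutoff on p alone either, where 1382 or 3.34% of all tested probes did (1.58% higher and 1.76% lower), and none changed by 2-fold, where 1.09% did. The median log2 fold change of the 10 genes was 0.06, beside 0.03 over all tested probes, with 6 genes above 0 and 4 below. Among all 41332 tested probes, 22741 were above 0. For all 10 genes the 95% interval lay within 2-fold in both directions, which held for 74.0% of the tested probes. The largest difference was that of Slc2a1, and the regulators lay between -0.27 and 0.18 on the log2 scale.

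**Figure D1:**
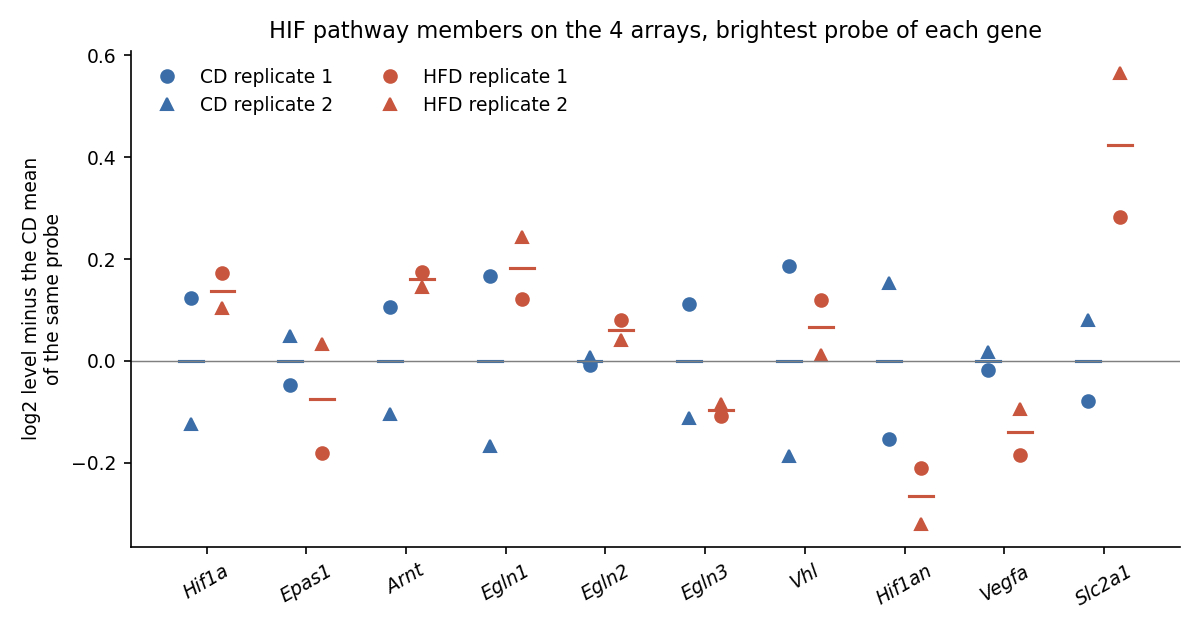
Level of each member on each of the 4 arrays (log2 scale), minus the CD mean of the same probe; blue marks CD, red marks HFD, circles and triangles mark replicates 1 and 2, and bars mark group means (n = 2). The HFD points of Slc2a1 lie above both CD points, with means 0.42 apart, and those of Hif1a and Egln1 lie among or beside their CD points.

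The alpha subunits were nearly level between the diets. Hif1a, the subunit whose protein the study stained, had levels of 2.48 and 2.24 under CD and 2.53 and 2.46 under HFD. The HFD arrays lay within 0.07 of each other and CD replicate 1 lay between them. The log2 fold change was 0.14 (standard error 0.18, 95% interval -0.34 to 0.61), so that a rise of Hif1a mRNA by more than 1.53-fold was outside the interval. Leaving out CD replicate 2 gave 0.01, and leaving out CD replicate 1 gave 0.26. Epas1, which encodes HIF-2alpha and is strongest in endothelial cells, had levels of 2.89 and 2.98 under CD and 2.76 and 2.97 under HFD. The groups overlapped, with a log2 fold change of -0.07 (standard error 0.18, interval -0.54 to 0.39). Without HFD replicate 1 it was 0.03.

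Arnt, the beta subunit shared by HIF and the aryl hydrocarbon receptor, had levels of 2.22 and 2.01 under CD and 2.29 and 2.26 under HFD. Both HFD arrays were above both CD arrays, by less than the gap between the CD arrays (log2 fold change 0.16, standard error 0.17, interval -0.30 to 0.62). Without CD replicate 2 the difference was 0.06. A dimmer Arnt probe (A_55_P2814820) overlapped between the diets, at 0.04.

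Among the prolyl hydroxylases, Egln1 encodes PHD2, the main oxygen sensor of the pathway and itself a HIF target. Its levels were 3.24 and 2.91 under CD and 3.20 and 3.32 under HFD. CD replicate 2 was the low array, and CD replicate 1 lay between the HFD arrays (log2 fold change 0.18, standard error 0.20, interval -0.34 to 0.70). For Egln1, leaving out CD replicate 2 gave 0.02 and leaving out CD replicate 1 gave 0.35. Egln3, which encodes PHD3 and is strongly induced by HIF in many cells, had levels of -0.47 and -0.69 under CD and -0.69 and -0.66 under HFD. Here CD replicate 1 was the high array and the other 3 lay within 0.03 of each other. The log2 fold change of Egln3 was -0.10 (standard error 0.17, interval -0.56 to 0.37), and without CD replicate 1 it was 0.02. The upper end of the interval was a 1.29-fold rise.

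Egln2 encodes PHD1 and was read by a pair of probes that went apart. The brighter one (A_55_P1960924) was the steadiest of the members, at 4.37 and 4.39 under CD and 4.46 and 4.42 under HFD. Its log2 fold change of 0.06 (standard error 0.16) was -0.04 with quantile normalization, so that no direction is given. The dimmer one (A_55_P2005330) had 1.80 and 2.22 under CD and 1.74 and 1.65 under HFD, a log2 fold change of -0.32 (standard error 0.21, interval -0.88 to 0.24). The gap of 0.38 between the probes was the largest between probes of a member.

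Vhl, the subunit of the ubiquitin ligase that binds hydroxylated HIF, had levels of 2.19 and 1.82 under CD and 2.12 and 2.02 under HFD. Both HFD arrays lay between the CD arrays (log2 fold change 0.07, standard error 0.20, interval -0.47 to 0.61), and without CD replicate 2 the value was -0.12. Hif1an encodes FIH, the asparaginyl hydroxylase. Its levels were -0.92 and -0.62 under CD and -0.98 and -1.09 under HFD, so that both HFD arrays were below both CD arrays. The log2 fold change was -0.27 (standard error 0.19, interval -0.77 to 0.24), smaller in size than the gap of 0.31 between the CD arrays. Without CD replicate 1 it was -0.42 and passed the cutoff on p, as did 20.8% of all tested probes in that fit (limma adjusted p = 0.234). A dimmer Hif1an probe (A_52_P49233) overlapped between the diets, at 0.06.

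**Figure D2:**
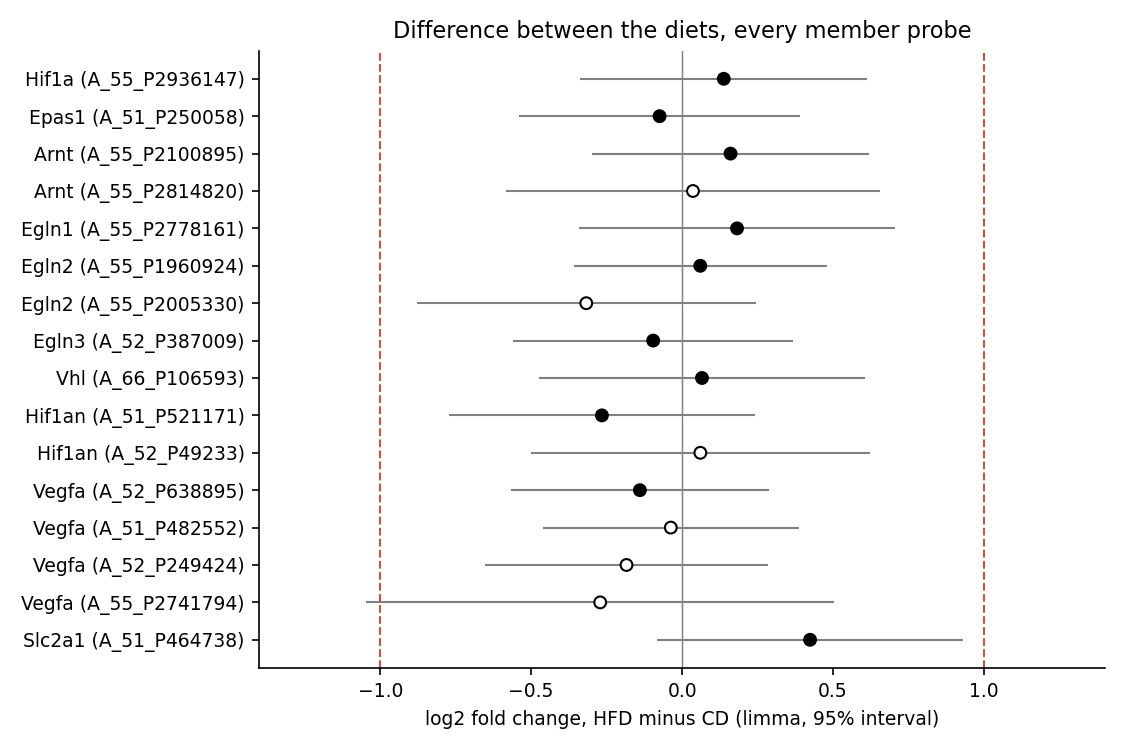
Log2 fold change (HFD minus CD) of each of the 16 member probes with its 95% interval from limma; filled points mark the brightest probe of a gene, open points the others, and dashed lines a 2-fold change. Every interval includes 0, and that of Slc2a1 reaches from -0.08 to 0.93.

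Of the target genes, Slc2a1 encodes GLUT1, a glucose transporter of fetal tissues, placenta and red cell precursors that HIF induces. Its intensities were 61211 and 44855 under CD and 71136 and 81031 under HFD. Scaled, these were levels of 5.84 and 5.99 (5.91 ± 0.11, SD, n = 2) under CD and 6.20 and 6.48 (6.34 ± 0.20, SD, n = 2) under HFD. Both HFD arrays were above both CD arrays, as for 19.5% of all tested probes. The log2 fold change was 0.42 (standard error 0.19, interval -0.08 to 0.93), or 1.34-fold, short of the cutoff on p. A change of this size or larger was found for 11.5% of the tested probes. The difference was 0.36 between the arrays of replicate 1, with Y-linked transcripts, and 0.49 between those of replicate 2, with Xist. Since both HFD arrays were above both CD arrays, every such pair had this sign, so the agreement between the pairs adds no support. With normexp background correction it was 0.46 and passed the cutoff on p, as did 1.51% of all probes tested that way, and the adjusted p of Slc2a1 over the alternatives ranged from 0.337 to 1.00.

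Of 8 erythroid markers, 6 had values above 0, where 22741 of 41332 tested probes did. Their log2 summed level was 8.72 and 8.98 under CD and 9.05 and 9.16 under HFD. Their median log2 fold change was 0.21 (range -0.08 to 0.60 over 8 genes), beside 0.03 over all tested probes. The embryonic globin Hbb-bh1, 1 of the 8, was past the cutoff on p, where 3.34% of all tested probes were. Among the brightest, Slc4a1 had 0.27, Alas2 0.30 and Gata1 0.15. Their part in the difference of Slc2a1 was not tested. The summed level of the trophoblast markers, given above, was lower on the HFD arrays, and its part was not tested either.

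Vegfa, the vascular growth factor that HIF raises in many tissues, was read by 4 probes. The brightest (A_52_P638895) had levels of 1.59 and 1.63 under CD and 1.43 and 1.52 under HFD. Both HFD arrays were below both CD arrays, with a log2 fold change of -0.14 (standard error 0.16, interval -0.57 to 0.29), so that a rise of more than 1.22-fold was outside the interval. The other probes had log2 fold changes of -0.04 (A_51_P482552), -0.18 (A_52_P249424) and -0.27 (A_55_P2741794), none past the cutoff on p. All 4 values were below 0, and the 4 probes read the same RNA and are not replicates. The dimmest probe became 0.06 without HFD replicate 2 and was the 1 member probe whose interval reached a 2-fold change, downward. The values of Vegfa and Slc2a1 had opposite signs, and the interval of each included 0, so that no contrast between them is drawn.

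Over the 16 probes, 3 had both HFD arrays above both CD arrays (19.5% of all tested probes) and 4 had both below (11.1%), of which a pair were Vegfa probes. In all, 7 did not overlap between the diets (30.7%). The difference between the diets was smaller than the gap between the CD arrays for 13 of 16 probes, a share not computed over all tested probes. The median gap between the CD arrays was 0.24 for the member probes and 0.35 over all tested probes. CD replicate 2 was below CD replicate 1 for 9 of 16 probes (47.4% of all tested probes). It was the lowest array for 5 of the 10 genes (Hif1a, Arnt, Egln1, Egln3 and Vhl) and the highest for 3, against 34.0% and 33.5% of all tested probes. Within the same replicate number, 7 of 10 genes had the same sign in both numbers, 4 higher and 3 lower in the HFD group, beside 40.9% of all tested probes. Egln1, Egln3 and Vhl were the exceptions. Where the groups do not overlap, the same sign follows from that order and adds nothing to it.

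**Figure D3:**
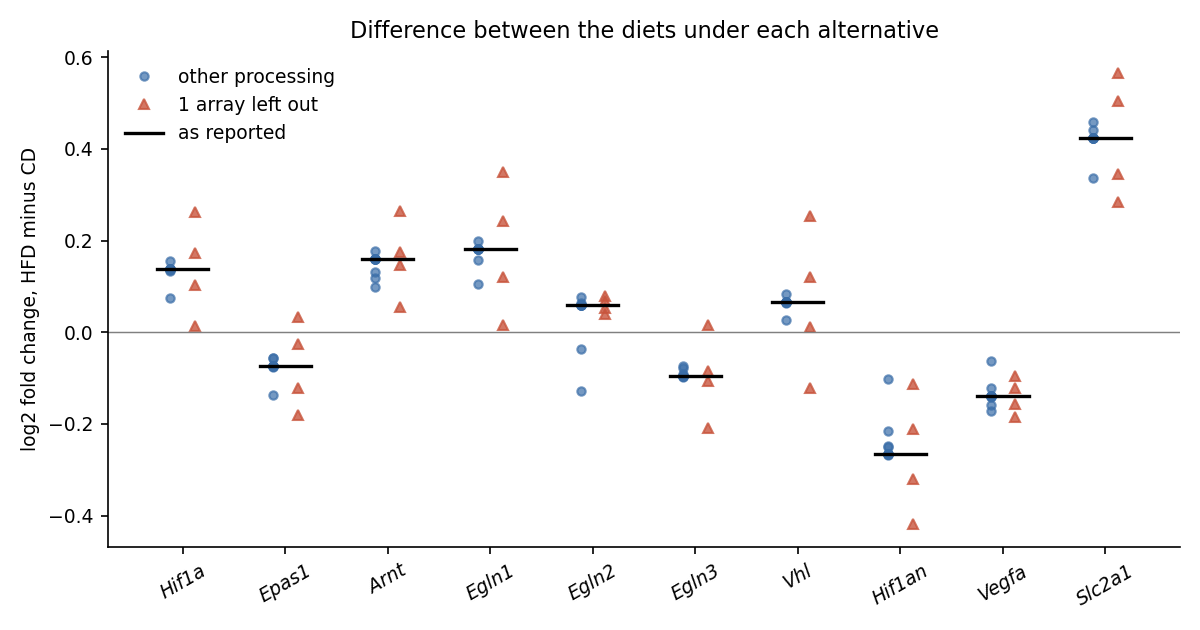
Log2 fold change (HFD minus CD) of each member as reported (black bar), under 10 other ways of processing or testing (blue points) and with each of the 4 arrays left out in turn (red triangles). Slc2a1 stayed between 0.28 and 0.56, while Epas1, Egln2, Egln3 and Vhl crossed 0.

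The rest of the pathway was followed through 5 lists, with 1 probe a gene. No gene of any list was past both cutoffs or past the cutoff on p alone. The other HIF subunits and coactivators (5 genes) centred on a log2 fold change of 0.00, with 0.10 for Hif3a, -0.08 for Crebbp and 0.06 for Cited2. The partners of Vhl in the ubiquitin ligase (4 genes) had a median of 0.09. Of these, Elob had 0.02, Rbx1 0.05 and Eloc 0.34 (standard error 0.16), and both HFD arrays of Eloc were above both CD arrays.

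The 9 other VEGF ligands and receptors had a median of -0.04 (range -0.33 to 0.30). The coreceptors Nrp2 and Nrp1 had 0.30 and -0.06, and Kdr, the main signalling receptor of VEGF-A, had 0.12. The groups overlapped for 7 of the 9, with Nrp2 above and Vegfb below in the HFD group, where 30.7% of all tested probes did not overlap. The 8 endothelial markers, cells on which VEGF acts, had a median of -0.08 (range -0.25 to 0.22), with 0.22 for Stab2, -0.08 for Cdh5 and 0.16 for Lyve1, and 0 of 8 past the cutoff on p. The 7 other glucose transporters had a median of -0.11 (range -0.39 to 0.38). Among them Slc2a4 had 0.02, Slc2a3 -0.11 and Slc2a2, the transporter of mature hepatocytes, -0.17, so that the value of 0.42 for Slc2a1 was above those of all 7.

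Of the 22 other hypoxia-induced genes, 21 had a signal well above background on each array. Of these, 17 had values above 0 and 4 below, where 22741 of 41332 tested probes were above 0. Their median log2 fold change was 0.12, beside 0.03 over all tested probes. Both HFD arrays were above both CD arrays for 9 of 22 (19.5% of all tested probes) and below for 2 (11.1%). The brightest were Higd1a (0.25, standard error 0.16), Bnip3l (0.38, standard error 0.18) and Ndrg1 (0.23, standard error 0.16), whose groups did not overlap. Bnip3l clears mitochondria from maturing red cells besides being a HIF target. Pdk1, a HIF target that shuts pyruvate out of mitochondria, was singled out after the values were seen, as among the highest of the list. It had levels of 3.52 and 3.48 under CD and 3.90 and 3.88 under HFD, a log2 fold change of 0.39 (standard error 0.16, interval -0.03 to 0.81).

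Hmox1, which degrades heme, was also chosen after its values were seen and had a log2 fold change of 0.41 (standard error 0.18), the highest of the list. Among the genes below 0, Car9 had -0.09, Ankrd37 -0.20 and Car12 -0.27, and both HFD arrays of Car12 were below both CD arrays. The probe of Epo, the hormone made by hepatocytes in low oxygen, was well above background on 0 of 4 arrays and is given no fold, though it counts among the 22. Over the alternatives between 0 and 6 of the 22 genes were past the cutoff on p, with 6 without CD replicate 1 and 5 without CD replicate 2, where 20.8% and 14.8% of all tested probes were. The erythroid markers given above were higher by a median of 0.21, and their part in the values of this list was not tested.

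**Figure D4:**
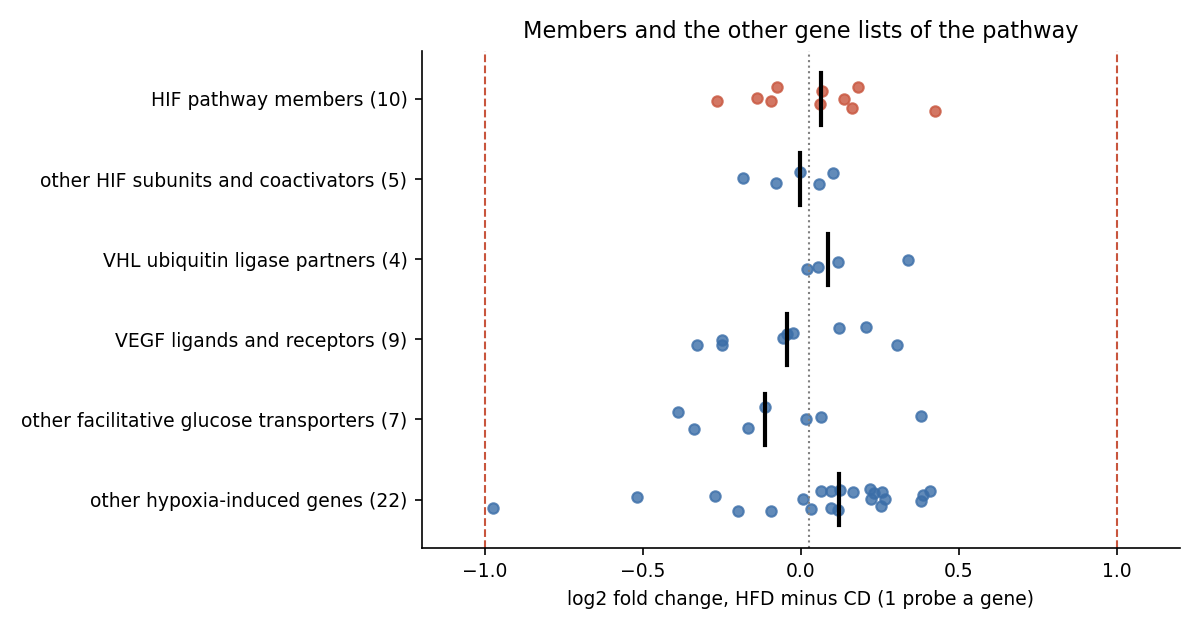
Log2 fold change (HFD minus CD) of the 10 members (red) and of the genes of 5 related lists (blue), 1 probe a gene; black bars mark medians, the dotted line the median of all 41332 tested probes, and dashed lines a 2-fold change. All genes lie within 2-fold, and the median of the hypoxia-induced genes is 0.12.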

How the data were processed

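The labels gave the diet and number of each array, and fetal age came from the study's methods. The authors hybridised Cy3-labelled cRNA and deposited spot intensities that Agilent Feature Extraction (11.0.1.1 in the submitters' processing notes) had background-subtracted and detrended, without scaling between arrays. Spot flags (outlier, saturated, well above background) came with the deposited spots as scores. A second deposited table holds a scaled signal for 41471 probes, which equals the intensity over a constant for each array.

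From the intensities, log2 values were averaged over the spots of a probe without outlier flags, and the 75th percentile of each array was subtracted. A probe was dropped where its level on 1 or more arrays was under the 20th percentile, or where its linear CV exceeded 50% under both diets. Names came from RefSeq genes through the transcript accession of the probe (GRCm38.p6), which gave 32986 of 56596 probes 1 symbol. The array was designed on another build, so that probe coordinates are not given. The coordinates of the promoter windows above come from RefSeq. Limma 3.58.1 in R 4.3.3 (lmFit, eBayes, HFD minus CD, no covariates) was run on 41332 probes and tested on simulated data. Values were prepared with Python 3.11.15.

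The members and lists were chosen with earlier results of these data known. By rule, the named genes were all members, the 3 brightest genes of each related list and any gene past the cutoffs. Epo, Vegfb, Pdk1, Hmox1, Car9, Ankrd37 and Car12 were named outside this rule after their values were seen. Values of cell type markers were summed over each list, with the 3 brightest named. Of the listed genes, Ahsp and Prl2c2 had no probe matched. The values of 1 listed gene are counted with its list and not reported here. The median log2 fold change of macrophage markers (6 tested) was 0.03, that of kidney and gonad markers (4 of 6 tested) 0.19 with Cyp11a1 past both cutoffs (1.87). The brightest of these were Csf1r (0.04), Adgre1 (0.03) and Cd68 (-0.24), and, of kidney and gonad, Foxl2 (-0.31), Wt1 (0.70) and Cyp11a1. Alternatives were quantile and median scaling, normexp with an offset of 50 (on median brightness), the authors' table, other filters, the mean over the probes of a gene, the methods' t-test, the replicate number as a block and leaving out each array. The 4 arrays shared 1 slide and 1 scan, and their number limits the precision.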

Additional observations from a re-analysis of the deposited data

How the results depend on the processing

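No member probe was past both cutoffs under any alternative run. Of 218 comparisons of a member probe with its reported value, 202 kept their direction and side of the cutoff on p, 13 changed sign and 3 passed the cutoff on p. The signs that changed with the processing were those of Egln2 (-0.037 with quantile normalization and -0.13 as the mean over its probes) and, with normexp background correction, the dimmer probes of Arnt (-0.022) and Hif1an (-0.064). With normexp, Slc2a1 passed the cutoff on p (0.46), so that 1 member probe did, as did 3 hypoxia-induced genes and 1.51% of all probes. By the methods' t-test 1 hypoxia-induced gene and 1 partner of Vhl passed it, as did 5.07% of all probes. As the mean over the probes of a gene, the median was -0.15 for the VEGF list and 0.016 for the glucose transporters. The cause was not tested.

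With each array left out in turn, log2 fold changes ranged from 0.014 to 0.26 for Hif1a, from 0.056 to 0.27 for Arnt, from 0.015 to 0.35 for Egln1, from -0.18 to 0.032 for Epas1, from -0.21 to 0.016 for Egln3, from -0.12 to 0.25 for Vhl, from -0.42 to -0.11 for Hif1an (past the cutoff on p without CD replicate 1) and from 0.28 to 0.56 for Slc2a1. The dimmer probes ranged from -0.22 to 0.29 for Arnt, from -0.11 to 0.24 for Hif1an, from -0.53 to -0.11 for Egln2 (past the cutoff on p without CD replicate 1), and from -0.076 to 0.0014 (A_51_P482552) and -0.60 to 0.056 (A_55_P2741794) for Vegfa. The median of the members ranged from -0.0064 to 0.15, without CD replicate 2 and without CD replicate 1, and 0 to 2 member probes passed the cutoff on p. The medians ranged from -0.025 to 0.20 for the partners of Vhl, from -0.12 to 0.064 for the VEGF list, from -0.21 to 0.029 for the glucose transporters and from 0.11 to 0.18 for the hypoxia-induced genes. The genes past the cutoff on p numbered 0 to 1 for the HIF subunits, for the partners of Vhl and for the VEGF list, 0 to 2 for the glucose transporters and 0 to 6 for the hypoxia-induced genes, of which 0 to 1 passed both cutoffs. In the same fits, the cutoff on p was passed by 20.8% of all probes without CD replicate 1, 14.8% without CD replicate 2, 2.48% without HFD replicate 1 and 1.88% without HFD replicate 2. The lone array of a group is then assumed to vary like the others.

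Over all probes, 318 passed both cutoffs, beside 48 with normexp, 845 without the filter on dim probes, 132 as means over genes, 97 by the methods' t-test and 656 to 1223 with an array left out. With the replicate number as a block, the log2 fold change of Slc2a1 was 0.42, short of the cutoff on p, 1 hypoxia-induced gene and 0 members passed the cutoff on p, and no other call of a member or list changed. The deviations of same-numbered arrays from their group means correlated at -0.10 over the tested probes. Slide and scan as a block could not be run, as there was 1 of each.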
